A study of Mus musculus with 6 samples.

Results

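Chemokines are small secreted proteins that guide the movement of leukocytes through G protein-coupled receptors. The families are named for the spacing of the first conserved cysteines, as CC, CXC, C and CX3C, and the gene symbols Ccl, Cxcl, Xcl and Cx3cl follow that naming. Group 2 innate lymphoid cells (ILC2s), innate cells of the lymphoid lineage that release type 2 cytokines when stimulated by IL-33, are known to carry chemokine receptors that place them in tissue. Through cytokines and chemokines they also act on eosinophils. Members were all rows of the expression table whose Entrez number maps to a symbol made of Ccl, Cxcl, Cx3cl or Xcl followed by a digit. The rule found 34 genes among 25206 rows, of which 19 are Ccl genes, 13 Cxcl genes, 1 Cx3cl gene and 1 Xcl gene. All 34 have their own row, and no row was left out.

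The arrays compared a Cbfb knockout with a non-target control in ILC2 lines from C57BL/6J mice. Both groups grew in 10 ng/ml of the cytokines IL-2 and IL-33 and received a lentiviral CRISPR construct (LentiV2CRISPRGFP). GFP+ cells of both were collected by sorting on day 6 of transduction. Knockout cells carried a guide against Cbfb, the gene of core-binding factor beta, which stabilises RUNX transcription factors on DNA. Control cells carried a guide without a target, and each group had 3 arrays. The labels name no clone and leave unstated whether replicates are separate cultures. The p-values therefore reflect the spread among these 6 samples alone, and that spread may be technical. Cbfb itself read 7.88, 7.69 and 7.91 in knockout arrays and 8.53, 8.73 and 8.70 in control arrays on the log2 scale. The array measures transcript, not the edit or the protein.

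Of 12 ILC2 markers, 11 had a row, and 10 of these lay above 3.595, the median of the row means. By limma at an adjusted p under 0.05, 2 of the 11 rose and 4 fell (54.5% called, against 9.75% of all rows and 18.1% of rows above the median row). Rora, a transcription factor gene needed for ILC2 development, averaged 5.53 in the knockout and 3.32 in the control, and Bcl11b 7.09 and 5.95. The 4 lower genes were Icos (9.43 in the knockout, 10.21 in the control), Il7r (8.20 and 8.76), Id2 (10.66 and 11.01) and Il5 (11.10 and 11.44). Leaving out any single array ended the call of Il5, and 5 of the 6 such omissions, all but that of control replicate 1, ended that of Id2. Il13 averaged 12.04 in the knockout and 12.25 in the control, Gata3 10.68 and 10.58, and Klrg1 11.36 and 11.37, and these 3 did not pass. Il2ra and Thy1 did not pass either, and Thy1 was the marker below the median row. Among markers of other cells, 1 of 9 for T cells fell (Trac, 11.1% of the list) and 1 of 6 for NK and type 1 cells fell (Prf1, 16.7%). Of 13 stromal, epithelial and endothelial markers 1 rose (Dcn) and 1 fell (Pecam1, with Dcn 15.4%). Over all rows 9.75% were called, 18.1% above the median row and 1.42% at or below it. At or below it lay 6 of the 9, 5 of the 6 and 6 of the 13. Of the 9 T cell markers 4 had an unadjusted p under 0.05 by limma, against 22.9% of all rows. These were Trac, Cd8a, Cd8b1 and Cd3d, all lower in the knockout. Groups did not overlap for 5 of the 9 (2 higher, 3 lower), against 27.5% of all rows. The summed linear level of the 9 was 133 to 143 in the knockout and 159 to 168 in the control. The call of Pecam1 ended without any single array, that of Dcn in 4 of 6 such fits and that of Prf1 without control replicate 2 or 3. By limma 0 of 5 B cell and 0 of 10 neutrophil and eosinophil markers passed, with 1 of each list at an unadjusted p under 0.05. Correlations between arrays across all rows were 0.9946 to 0.996 within groups and 0.988 to 0.9908 between groups, and no array stood apart. The number of arrays limits the precision. Probes of different genes bind with different strength, so values below are compared between groups for 1 gene and not between genes. The table holds no detection calls, and a difference of a gene near background can be understated.

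Among the chemokine ligands, Ccl24 and Ccl5 rose and Cxcl2 fell in the knockout, while 31 of 34 did not pass the test. That makes 3 of 34 ligands called (8.82%), against 9.75% of all rows called by limma at an adjusted p under 0.05. By direction, 2 ligands (5.88%) were higher, against 5.51% of all rows, and 1 ligand (2.94%) was lower, against 4.24% of all rows. The share of ligands called was thus close to the share of all rows. At an adjusted p under 0.01, 2 of 34 ligands were called, against 3.83% of rows, and at 0.10 it was 4 of 34, against 14.1% of rows. Knockout and control arrays did not overlap for 7 ligands (20.6%), against 27.5% of all rows, and 7 had an unadjusted p under 0.05, against 22.9% of all rows. The median difference was -0.05 over the ligands and -0.0067 over all rows. Of the ligands 25 had a mean at or below the median row, and none of these passed the test, while 3 of them had an unadjusted p under 0.05 by limma. Of the rows at or below the median row 1.42% were called. The 9 ligands above the median row held all 3 calls (33.3%), against 18.1% of rows above it.

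**Figure D1:**
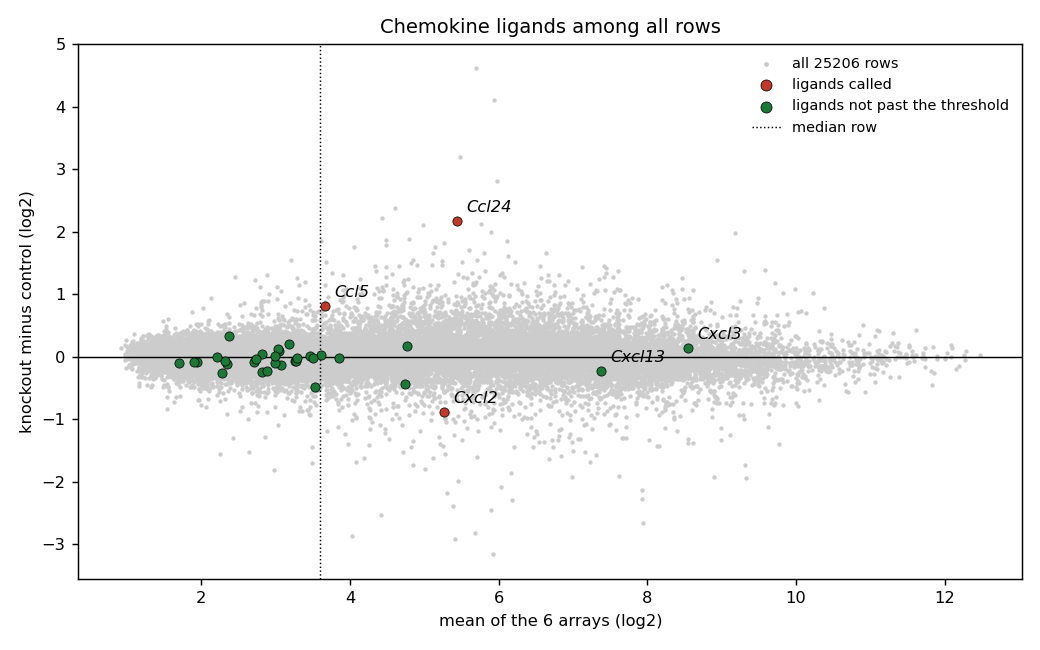
Each point is 1 of 25206 rows, with the mean of the 6 arrays (log2) on the x axis and knockout minus control (log2) on the y axis. Red points are the 3 ligands called, green points the 31 that did not pass, and the dotted line marks the median row at 3.595. Most ligands lie left of that line and near 0, and Ccl24 stands highest among them at 2.17.

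Ccl24 (Entrez gene 56221) encodes eotaxin-2, which attracts eosinophils through the receptor CCR3. It read 6.32, 6.69 and 6.56 in knockout arrays and 4.57, 4.21 and 4.29 in control arrays. The lowest knockout array lay well above the highest control array. The mean was 6.52 ± 0.19 in the knockout and 4.36 ± 0.19 in the control (SD, n = 3 each), a difference of 2.17 ± 0.13 (SE, limma adjusted p = 0.000113). The 95% interval of the 4.49-fold rise was 3.64 to 5.53. In a bulk sample, more cells that express a gene and more RNA per cell cannot be told apart.

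The other eotaxin genes with a row are Ccl11 and Ccl26, and neither passed. Ccl5, which also acts on CCR3, is described below. Ccl11 read 2.69, 2.74 and 2.64 in knockout arrays and 3.07, 2.88 and 2.86 in control arrays. Its groups did not overlap, with the knockout lower by a difference of -0.25 (limma adjusted p = 0.143). Ccl26, which has no other gene between it and Ccl24 in the RefSeq annotation, read 2.82, 2.68 and 2.64 in knockout arrays and 2.67, 2.78 and 2.80 in control arrays. These groups overlapped, and the 95% interval of the difference was -0.24 to 0.17. Both genes lay below the median row, where a change can be understated.

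Ccr3, the receptor gene of the eotaxins, read 7.42, 7.57 and 7.69 in knockout arrays and 7.53, 7.64 and 7.62 in control arrays. The groups overlapped, with a difference of -0.04 (limma adjusted p = 0.879). Macrophages are a known source of Ccl24, so macrophage, monocyte and dendritic cell markers are given beside its rise. Of 18 such markers 16 had a row, 0 rose, and Itgax fell, at 4.77 in the knockout and 5.81 in the control (limma adjusted p = 0.00128). That is 6.25% of the 16, against 9.75% of all rows. The summed linear level of the 16, Itgax included, was 226 to 254 over knockout arrays and 254 to 274 over control arrays. The fall of Itgax weighs heavily in the difference between these sums, which does not describe the other markers. Of the 16, 11 lay at or below the median row, where 1.42% of rows were called. Adgre1 and Csf1r had means over the 6 arrays of 2.06 and 2.78. Of the list 5 lay above the median row, with Cd68 highest at 5.86 and Ly6c2 at 5.85. Of 11 mast cell and basophil markers, Hdc (5.39 in the knockout, 3.93 in the control) and Gata2 (5.38 and 4.62) rose and Cpa3 (3.96 and 6.87) fell. That is 27.3% of the list, against 9.75% of all rows, and the call of Gata2 held in 1 of 6 fits on 5 arrays, that without control replicate 1. The summed linear level of the 11 was 139 to 149 in the knockout and 191 to 237 in the control. Cpa3 had the highest mean of the list and weighs heavily in that sum, so its fall does not describe the other markers. No marker is listed at 0. Ms4a2 and Mcpt4 had the lowest means of the mast cell list, 1.68 and 1.34. Of that list 8 of 11 lay at or below the median row. The part of the cells of either list in the result was not tested.

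Ccl5 (Entrez gene 20304), known as RANTES, attracts T cells, monocytes and eosinophils, and its receptors include CCR1 and CCR3. It read 4.01, 4.21 and 3.99 in knockout arrays and 3.32, 3.31 and 3.16 in control arrays. The groups were separated, and the difference was 0.81 ± 0.096 (SE, limma adjusted p = 0.00205). The rise was 1.75-fold, with a 95% interval of 1.5 to 2.04. The control arrays lay below the median row, so the fold is approximate.

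The other inflammatory CC ligands of this kind, Ccl3, Ccl4, Ccl6 and Ccl9, did not pass. Ccl4, also called MIP-1β, read 3.27, 3.25 and 3.33 in knockout arrays and 4.20, 3.48 and 3.61 in control arrays. All 3 knockout arrays lay below the control arrays, of which replicate 1 was the highest. The difference was -0.48 (limma adjusted p = 0.138, 95% interval -0.88 to -0.08), and without control replicate 1 it was -0.26. Ccl3, or MIP-1α, with no gene between it and Ccl4, read 3.61, 4.01 and 3.92 in knockout arrays and 4.08, 3.64 and 3.87 in control arrays. The groups of Ccl3 overlapped, with a difference of -0.02 and an interval of -0.35 to 0.31.

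Ccl6 and Ccl9, CCR1 ligands of rodents, overlapped between groups. Ccl6 had the same mean of 2.21 in both groups, with an interval of -0.20 to 0.20. Ccl9 averaged 3.50 ± 0.33 in the knockout and 3.51 ± 0.28 in the control. Ccr1, the receptor gene, read 7.06, 6.85 and 7.12 in knockout arrays and 8.27, 8.42 and 8.26 in control arrays. It fell by 1.31 on the log2 scale (limma adjusted p = 0.000314), while Ccl5 rose and Ccl3, Ccl6 and Ccl9 differed by 0.02 or less in size.

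**Figure D2:**
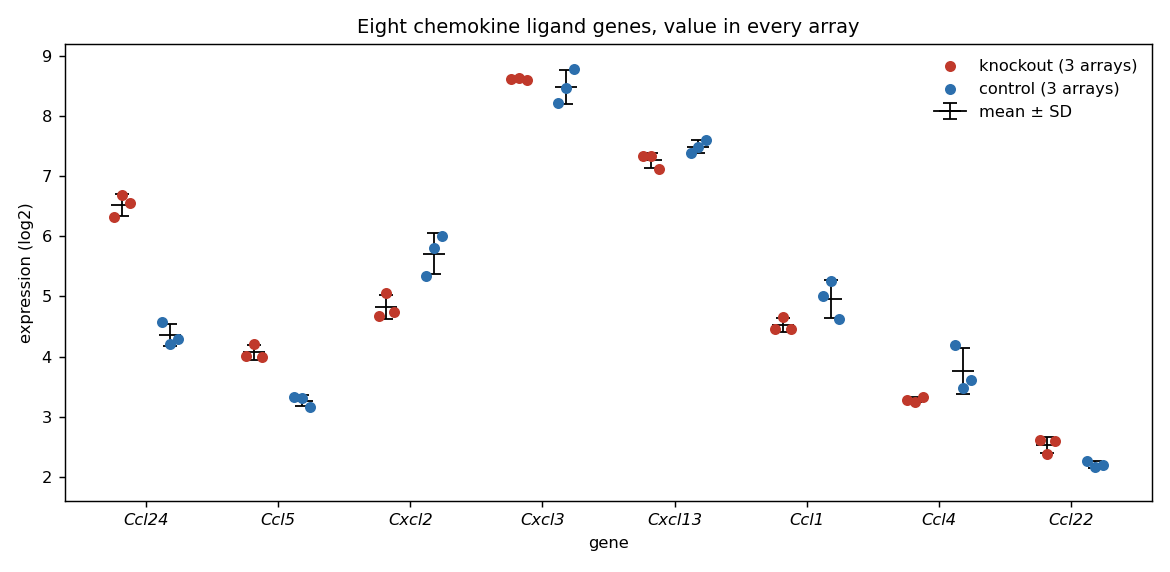
Expression (log2, y axis) of 8 ligand genes (x axis) in every array, with knockout in red and control in blue, black bars showing the mean ± SD of 3 arrays. The knockout arrays of Ccl24 and Ccl5 lie above their control arrays and those of Cxcl2 below, while Cxcl3 and Ccl1 overlap between groups.

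Cxcl2 (Entrez gene 20310), known as MIP-2, attracts neutrophils through CXCR2. It read 4.68, 5.05 and 4.74 in knockout arrays and 5.34, 5.80 and 6.00 in control arrays. The groups did not overlap, and the gap between the nearest arrays was smaller than the spread of the control arrays. The difference was -0.89 ± 0.18 (SE, limma adjusted p = 0.0171), so that 0.540 of the control signal remained (95% interval 0.408 to 0.714). The call was lost in 4 of 6 fits on 5 arrays each, those without control replicate 2, control replicate 3, knockout replicate 1 or knockout replicate 3, with adjusted p of 0.0515 to 0.066 by limma. The direction held in all 6, with differences of -1.08 to -0.75.

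Cxcl3 (Entrez gene 330122), another CXCR2 ligand, did not pass. It read 8.61, 8.64 and 8.60 in knockout arrays and 8.22, 8.46 and 8.78 in control arrays. The knockout arrays lay within the range of the control arrays, whose SD was 0.28 against 0.021 in the knockout, and the 95% interval of the difference was -0.18 to 0.44 (limma adjusted p = 0.656). Transcripts of Cxcl1, Cxcl2 and Cxcl3 are similar in sequence, and the values do not show how far their probes tell them apart.

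The 3 remaining CXCR2 ligands overlapped between groups and lay below the median row. Cxcl1, known as KC, read 3.41, 3.07 and 3.25 in knockout arrays and 3.12, 3.37 and 3.43 in control arrays. Cxcl5 averaged 3.0 ± 0.28 and 3.13 ± 0.14, and Cxcl15 2.28 ± 0.036 and 2.34 ± 0.17, in knockout and control. Their differences were -0.06, -0.13 and -0.06. Cxcr2, the shared receptor gene, read 6.24, 6.10 and 6.39 in knockout arrays and 5.68, 5.88 and 5.97 in control arrays. The knockout arrays of Cxcr2 lay above the control arrays, and the difference of 0.40 did not pass (limma adjusted p = 0.0647).

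Cxcl5, Cxcl3, Cxcl15, Cxcl1 and Cxcl2 lie in this order in 1 gene cluster, with Ppbp and Pf4 between Cxcl5 and Cxcl3 and no other gene in the RefSeq annotation. Ppbp and Pf4 encode platelet CXC chemokines that the symbol rule leaves out. Ppbp, singled out after its values were seen, read 11.11, 11.05 and 11.04 in knockout arrays and 11.00, 11.00 and 11.16 in control arrays, and 99.7% of rows had a lower mean. The groups of Ppbp overlapped, with an interval of -0.18 to 0.21. Pf4 averaged 2.65 ± 0.13 in the knockout and 2.89 ± 0.038 in the control and did not pass (limma adjusted p = 0.167).

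The windows around the starts of Cxcl2, Cxcl3 and Cxcl1 are shown because these CXCR2 ligand genes lie in 1 cluster and Cxcl2 was the gene of the cluster that passed. Each is a RefSeq window of 250 bases before to 50 bases after the annotated start in GRCm38.p6, on the plus strand. Cxcl2 is at chr5:90903649-90903948, Cxcl3 at chr5:90785851-90786150 and Cxcl1 at chr5:90890995-90891294. Capitals mark a κB motif, GGGNNTTTCC, or a RUNX core motif, TGTGGT, on either strand.
Cxcl2: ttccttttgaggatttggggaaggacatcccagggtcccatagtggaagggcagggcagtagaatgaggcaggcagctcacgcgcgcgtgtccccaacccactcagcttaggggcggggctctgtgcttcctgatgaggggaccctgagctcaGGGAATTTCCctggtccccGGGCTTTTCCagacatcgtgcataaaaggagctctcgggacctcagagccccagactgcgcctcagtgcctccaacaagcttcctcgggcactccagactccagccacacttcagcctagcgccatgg
Cxcl3: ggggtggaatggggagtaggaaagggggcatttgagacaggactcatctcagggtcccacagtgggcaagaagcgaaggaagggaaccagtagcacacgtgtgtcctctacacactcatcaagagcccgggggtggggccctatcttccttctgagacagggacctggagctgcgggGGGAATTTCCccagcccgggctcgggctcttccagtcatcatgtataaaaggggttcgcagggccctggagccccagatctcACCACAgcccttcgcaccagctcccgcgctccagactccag
Cxcl1: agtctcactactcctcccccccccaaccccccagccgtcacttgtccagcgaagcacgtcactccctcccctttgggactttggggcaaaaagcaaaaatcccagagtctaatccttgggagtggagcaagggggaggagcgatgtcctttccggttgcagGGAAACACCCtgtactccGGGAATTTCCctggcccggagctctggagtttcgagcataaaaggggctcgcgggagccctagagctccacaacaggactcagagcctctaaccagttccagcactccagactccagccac
The letters GGGAATTTCC stand in all 3 windows, beginning 97 bases before the start in Cxcl2, 73 in Cxcl3 and 71 in Cxcl1. Cxcl2 and Cxcl1 each hold another κB match, and the RUNX core is found in the Cxcl3 window on the opposite strand and in neither of the others.

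A window was found for 23 of the 34 ligands, 24 windows in all. Ccl11, Ccl2, Ccl24, Ccl26, Ccl4, Ccl5, Ccl7, Cxcl11, Cxcl16, Cxcl17 and Cxcl5 had none in the table. With Ccl24 and Ccl5 among them, Cxcl2 was the only called ligand that could be searched. The motif counts below therefore cannot relate a motif to a call. The κB motif was in 5 ligand windows (20.8%), those of Ccl20, Ccl9, Cxcl1, Cxcl2 and Cxcl3, against 1.63% of all 32851 windows of the same length. Of these 5 genes Cxcl2 alone passed the test. The RUNX core was also in 5 ligand windows (20.8%), those of Ccl20, Ccl3, Cxcl3, Cxcl9 and Xcl1, against 16.8% of all windows, and none of these 5 genes passed. The AP-1 motif TGANTCA was in the windows of Ccl28, Ccl9, Cxcl10 and Cxcl9, or 16.7% of ligand windows, against 7.81% of all. The motifs were searched on both strands, and the Ccl9 window holds both κB and AP-1 without overlap. A match describes letters and is not a binding site.

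Cxcl13 (Entrez gene 55985) encodes a B cell attractant of lymphoid follicles that acts on CXCR5. It read 7.34, 7.33 and 7.12 in knockout arrays and 7.38, 7.49 and 7.61 in control arrays. The groups did not overlap, with the nearest arrays 7.34 and 7.38, and the difference of -0.23 did not pass (limma adjusted p = 0.224). Like Cxcl3, it was among the ligands with a mean above 6, and no other ligand was. Its receptor gene Cxcr5 differed by 0.17 (limma adjusted p = 0.524).

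The other ligands grouped here as homeostatic or tissue-homing did not pass. Ccl25, which draws lymphocytes to the small intestine through CCR9, read 4.99, 4.63 and 4.96 in knockout arrays and 4.64, 4.47 and 4.94 in control arrays. Cxcl12, the ligand of CXCR4 and of the scavenger receptor ACKR3, averaged 2.84 ± 0.010 in the knockout and 2.79 ± 0.064 in the control. Ccl28, a mucosal attractant that acts on CCR10, averaged 3.62 ± 0.068 and 3.59 ± 0.12 in knockout and control. These groups overlapped, as did those of Ccl19, which guides cells to lymph nodes through CCR7, and of Ccl20, the CCR6 ligand. Ccl19 averaged 2.14 ± 0.23 and 2.40 ± 0.24 in knockout and control, and Ccl20 2.94 ± 0.11 and 3.04 ± 0.21. Over the 6 ligands of this group, Cxcl13 included, the differences ran from -0.26 to 0.18.

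CCR4 and CCR8 are receptors of type 2 and skin-homing lymphocytes. Ccl22, a CCR4 ligand, read 2.61, 2.38 and 2.60 in knockout arrays and 2.27, 2.16 and 2.19 in control arrays. The groups did not overlap, the difference was 0.32 (limma adjusted p = 0.0725), and all arrays lay well below the median row. Ccl17, the other CCR4 ligand, read 2.31, 2.53 and 2.02 in knockout arrays and 2.27, 2.26 and 2.68 in control arrays, which overlapped. Ccr4 itself read 7.96, 7.99 and 7.96 in knockout arrays and 6.91, 6.64 and 6.63 in control arrays. It rose by 1.24 on the log2 scale (limma adjusted p = 0.000348), with no overlap.

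Ccl1, a CCR8 ligand made by activated T cells and mast cells, read 4.46, 4.65 and 4.46 in knockout arrays and 5.01, 5.25 and 4.62 in control arrays. The groups overlapped through control replicate 3, and the difference of -0.44 did not pass (limma adjusted p = 0.132). Without control replicate 3 the difference was -0.61 and passed (limma adjusted p = 0.0318). Ccl8, which in the mouse also acts on CCR8, averaged 1.86 ± 0.17 in the knockout and 1.95 ± 0.29 in the control. Ccr8 read 9.43, 9.36 and 9.36 in knockout arrays and 9.68, 9.55 and 9.44 in control arrays, lower in each knockout array, and the difference of -0.17 did not pass (limma adjusted p = 0.311).

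The monocyte attractants Ccl2, Ccl7 and Ccl12, which act on CCR2, overlapped between groups. Ccl2, known as MCP-1, read 3.36, 3.42 and 3.61 in knockout arrays and 3.41, 3.53 and 3.41 in control arrays. Ccl7 averaged 2.99 ± 0.39 and 2.98 ± 0.16, and Ccl12 1.64 ± 0.060 and 1.75 ± 0.093, in knockout and control. Their differences ran from -0.11 to 0.02, and all 3 lay below the median row. Ccr2, their receptor gene, averaged 9.62 ± 0.12 in the knockout and 9.4 ± 0.061 in the control and did not pass (limma adjusted p = 0.201).

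The CXCR3 ligands Cxcl9, Cxcl10 and Cxcl11, which interferons induce, did not pass either. Cxcl10 read 3.03, 3.18 and 3.07 in knockout arrays and 3.05, 2.98 and 2.97 in control arrays. Cxcl9 averaged 1.90 ± 0.12 and 1.99 ± 0.12, and Cxcl11 3.10 ± 0.059 and 2.97 ± 0.29, in knockout and control. RefSeq lists Cxcl11 as a transcribed pseudogene in this assembly of the C57BL/6J genome. The receptor gene Cxcr3 differed by 0.12 (limma adjusted p = 0.583).

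The transmembrane ligands are Cx3cl1, known as fractalkine, and Cxcl16. Cx3cl1 read 3.35, 3.08 and 3.42 in knockout arrays and 3.03, 3.16 and 3.05 in control arrays. Cxcl16 read 2.99, 2.69 and 2.61 in knockout arrays and 2.90, 2.97 and 3.13 in control arrays. Both sets overlapped, with differences of 0.20 and -0.24 that did not pass (limma adjusted p = 0.321 and 0.296). Cxcr6, the receptor gene of Cxcl16, read 7.25, 7.13 and 7.09 in knockout arrays and 8.27, 8.31 and 8.25 in control arrays. It fell by 1.12 on the log2 scale (limma adjusted p = 0.000255), without overlap. Xcl1, or lymphotactin, averaged 2.66 ± 0.060 and 2.76 ± 0.091 in knockout and control. Cxcl14 and Cxcl17 differed by -0.02 and -0.07.

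**Figure D3:**
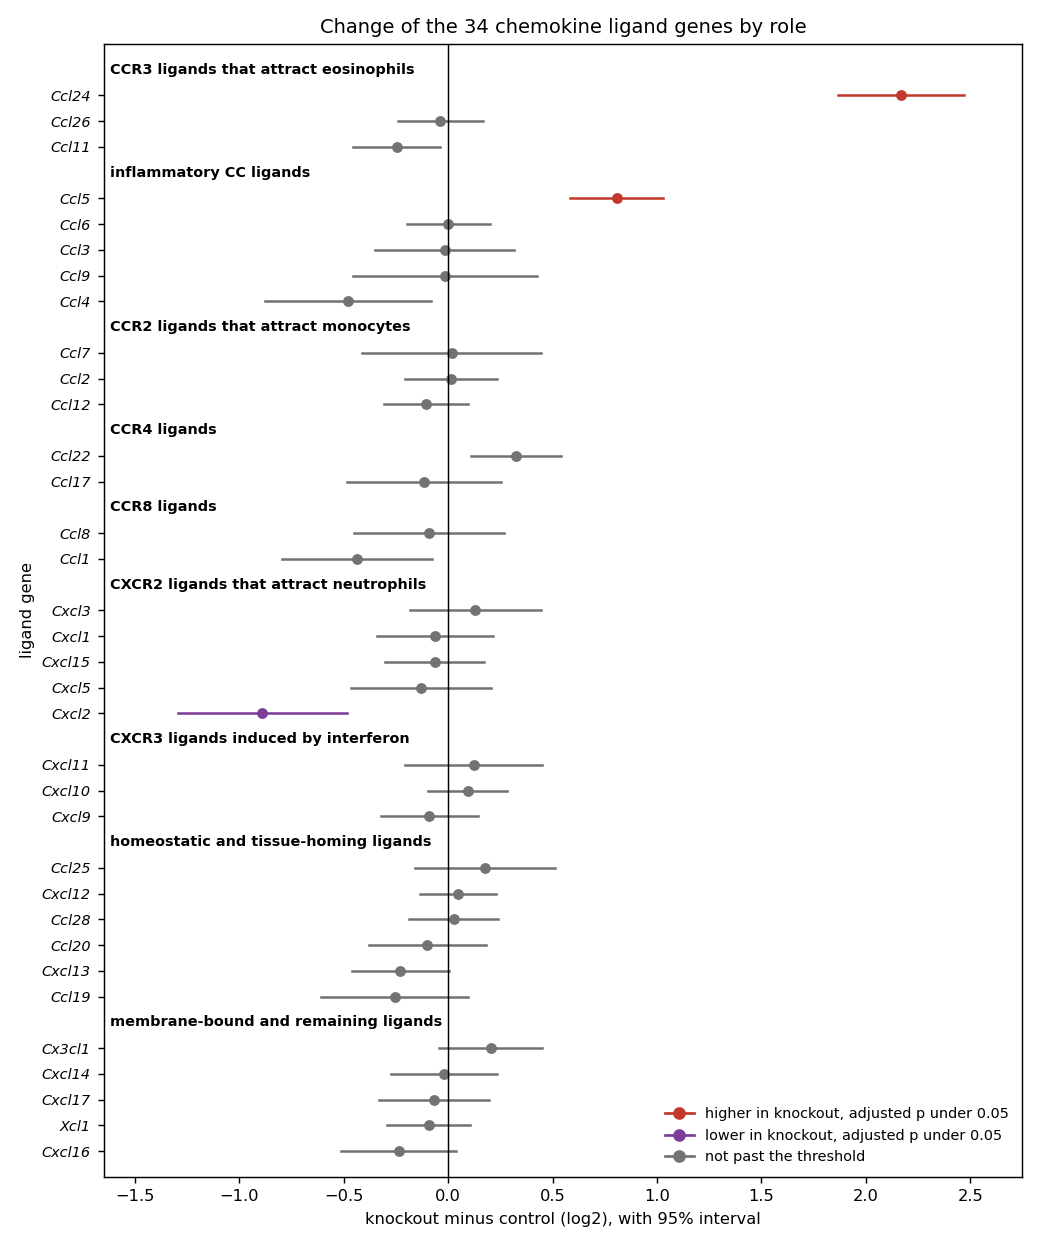
Knockout minus control (log2, x axis) for the 34 ligand genes (y axis), grouped by role, with points at the difference and lines at its 95% interval from limma. Ccl24 at 2.17 and Ccl5 at 0.81 lie right of 0, Cxcl2 at -0.89 lies left, and the other 31 lie between -0.48 and 0.32.

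The 31 ligands that did not pass are not shown to be equal between groups. Their differences lay between -0.48 and 0.32, and their 95% intervals reached from -0.88 (Ccl4) to 0.54 (Ccl22). Of these, 20 had a negative difference, 10 a positive one and 1 none, and over all rows 12795 were negative and 12219 positive. Of the 26 ligands outside those named by rule, 3 had a mean above the median row, and their differences ran from -0.26 to 0.20.

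The genes that act with the ligands were taken from fixed lists. Of 23 chemokine receptors 22 had a row, of which 2 rose, 2 fell and 18 did not pass, with a median difference of -0.08. That is 18.2% called, against 9.75% of all rows. Of the 22, 12 lay above the median row, where 18.1% of rows were called, against 1.42% at or below it. Besides Ccr4, the scavenger receptor gene Ackr3, which binds CXCL12, rose. Ackr3 read 5.45, 5.94 and 5.54 in knockout arrays and 3.95, 4.26 and 4.30 in control arrays (limma adjusted p = 0.00103). Ccr1 and Cxcr6 were the falls. None of the 4 receptors called has a ligand called in the same direction, and Ccl5 with Ccr1 is the pair in which both were called, in opposite directions.

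**Figure D4:**
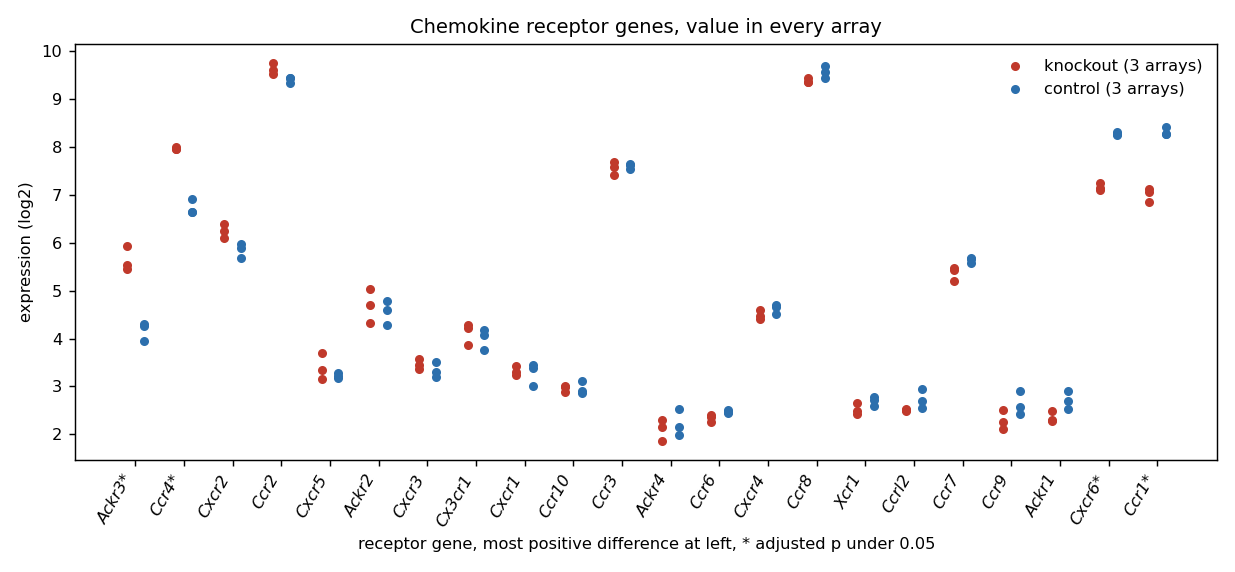
Expression (log2, y axis) of 22 chemokine receptor genes (x axis) in every array, with knockout in red and control in blue, ordered by the difference. Ackr3 and Ccr4 at the left are higher and Cxcr6 and Ccr1 at the right lower in the knockout, and the knockout and control arrays of Ccr3 overlap.

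Of 22 signalling genes downstream of chemokine receptors 21 had a row, of which 2 rose, 3 fell and 16 did not pass (23.8% called). Of the 21, 18 lay above the median row, where 18.1% of rows were called. Plcb3, a phospholipase C gene, averaged 7.83 ± 0.023 in the knockout and 6.77 ± 0.12 in the control (limma adjusted p = 0.000478). Ptk2b, the gene of the kinase PYK2, averaged 7.65 ± 0.061 and 8.21 ± 0.036 in knockout and control (limma adjusted p = 0.00427). Pik3cg, the gene of PI3-kinase gamma, differed by -0.40 (limma adjusted p = 0.0204) and Rgs1, a brake on Gαi signalling, by 0.37 (limma adjusted p = 0.0264). Leaving out any single array ended the call of Rgs1, and 4 of the 6 such omissions ended that of Pik3cg. The median difference of the list was 0.01. Of 7 chemokines and chemokine-like genes with other symbols, 0 passed, with Cmtm3 nearest at a difference of 0.32 (limma adjusted p = 0.0896), and 3 had an unadjusted p under 0.05. The share of rows at that unadjusted p was 22.9% over all rows and 37.2% above the median row, where 5 of the 7 genes lay. Cmtm6 differed by 0.29 and Mif, a cytokine that can bind CXCR2 and CXCR4, by -0.18.

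The last list holds transcription regulators known to act on chemokine genes. Of 27 listed 24 had a row, of which 2 rose, 12 fell and 10 did not pass (58.3% called), with a median difference of -0.42, and all 24 lay above the median row, where 18.1% of rows were called. Rel, which encodes an NF-κB subunit, read 6.33, 6.91 and 6.61 in knockout arrays and 9.49, 9.45 and 8.89 in control arrays (limma adjusted p = 0.000245). Irf4 averaged 8.32 ± 0.13 in the knockout and 9.66 ± 0.035 in the control (limma adjusted p = 0.000194). Nr4a1 differed by -1.92 and Irf8 by -0.93, with no overlap. Runx1 and Stat5b, named after their values were seen, were the 2 that rose. Runx1 averaged 8.05 in the knockout and 6.78 in the control (limma adjusted p = 0.00121). Stat5b differed by 0.36 (limma adjusted p = 0.0267). Stat6, which carries IL-4 and IL-13 signals to Ccl24 and other genes, was singled out after its values were seen. Stat6 averaged 7.07 ± 0.035 and 7.22 ± 0.032 in knockout and control. Its groups did not overlap, and the difference of -0.15 did not pass (limma adjusted p = 0.301). Whether any of these genes acts on a ligand here was not tested.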

How the data were processed

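Total RNA was biotin-labelled and hybridised to 6 single-colour arrays, per the labels. The deposited values are log2 expression, 1 row per Entrez gene, between 0.66 and 12.51. That scale was read from the values. RMA and limma 3.14.4 appear among tools in the submitters' processing notes, with no stated role, and the array's genome build is not given in the sources used here. Quantile normalisation, a part of RMA, would hide a change shared by most genes.

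Values were used as deposited, without a filter. Of 25206 rows, 23185 have 1 gene symbol, matched through the Entrez number to RefSeq names of GRCm38.p6, and 2021 have none. Knockout minus control was fitted over all rows with limma 3.58.1 in R 4.3.3 (1 coefficient per group, moderated two-sided test), with Benjamini-Hochberg adjustment over all rows and calls at an adjusted p under 0.05. Members, lists and motifs were chosen with earlier results of these data known. Values per array are given for ligands past the threshold, with a mean above 6 or with the 3 next smallest adjusted p, and for other ligands and receptors chosen to describe their group. Of each list up to 4 genes with the smallest p are named, besides receptors of the ligands and the cell markers that passed. Some cell markers that did not pass, and Stat6, Ppbp, Runx1 and Stat5b, were named outside this rule. Motifs were searched in RefSeq windows. Alternatives used a replicate block, omitted single arrays, or took other normalisations, filters, priors, weights and thresholds.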

Additional observations from a re-analysis of the deposited data

How the results depend on the processing

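The 16 alternatives kept the direction of Ccl24, Ccl5 and Cxcl2, and Ccl24 and Ccl5 passed in all 16 (adjusted p 1.73e-06 to 0.0165 and 0.000669 to 0.03 by limma or the ordinary test). Ligands called higher numbered 2 in each alternative except the threshold of 0.10, which added Ccl22 and gave 3. Ligands called lower numbered 0 with the ordinary test without moderation (Cxcl2 adjusted p = 0.134) and at a threshold of 0.01, and 0 to 1 in the fits that left out 1 array. That 1 was Cxcl2 without control replicate 1 or knockout replicate 2, and Ccl1 without control replicate 3. Over all rows, leaving out 1 array gave 1307 to 1837 called, the ordinary test 1254 and the threshold of 0.01 966, against 2457 in the fit reported. The count was 3562 at a threshold of 0.10, 3517 over the rows above the median row alone, 3516 with a trended and robust prior and 2727 with array weights. Of 653 values of 41 named genes under the alternatives, 579 stayed on their side of the threshold, 67 lost the call, 7 gained it and 0 turned direction while called. The replicate number as a block gave 1745 called rows and the same 3 ligands, with differences of 2.17, 0.81 and -0.89. Same-numbered arrays had correlations of deviations from group means of 0.02493, 0.006693 and 0.0539, so the labels' numbers were not taken to pair them, and the block ended the calls of Pik3cg, Rgs1, Id2, Il5 and Pecam1 (adjusted p 0.0623 to 0.0965). Low signal limits the 25 ligands at or below the median row, where differences can be understated.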
